A study of Mus musculus with 6 samples.

Results

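The Gimap genes encode GTPases of immunity-associated proteins, a family of small GTP-binding proteins known for keeping lymphocytes alive. Their messenger RNA was measured by RNA sequencing of 6 mouse inguinal lymph node samples, 3 labelled Naringin and 3 labelled Control. The inguinal nodes drain the skin of the groin. Naringin, the bitter flavanone glycoside of grapefruit, had been mixed into the food at 200 mg/kg per day. The labels name neither a strain, an age or a sex, nor how long feeding lasted or what Control samples ate. The members were chosen by symbol: Gimap1, Gimap3, Gimap4, Gimap5, Gimap6, Gimap7, Gimap8 and Gimap9, 8 of the 50559 genes in the deposited table. These were also the only 8 symbols in that table that begin with Gimap, and all 8 passed the filter on low values, a mean of 1 CPM or more, that left 14873 genes for testing. CPM is the number of reads of a gene per 1000000 reads assigned to any gene.

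Gimap proteins share a guanine nucleotide-binding domain, called AIG1, and most are anchored to or found on membranes inside the cell, such as the endoplasmic reticulum, the Golgi, lysosomes and lipid droplets. They are made mainly by lymphocytes, and some also by endothelium. Loss of Gimap5 leaves rats and mice short of T cells, and Gimap1 is required for mature T and B cells in mice. Lymph nodes are largely T and B lymphocytes, and both were plainly present here. The 20 fixed T cell markers summed to 3626 to 4697 CPM in Naringin libraries and 4611 to 4966 CPM in Control libraries. The 15 B cell markers summed to 4413 to 5413 CPM in Naringin libraries and 4351 to 4919 CPM in Control libraries. The receptor constant-region genes Trac, Ighm and Ighd, which these cells use, are listed at 0 in every library. The sums therefore rest on the other 19 T cell and 13 B cell markers. Why these genes are at 0 was not tested.

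Depth ran from 13074180 to 14976422 gene-assigned reads per library. Each Gimap gene had at least 801 reads in every library and at most 10517. Whether replicates were different mice is not stated, so p-values measure the spread among these samples only, which may be technical. In RNA from whole nodes, fewer cells of a type and less RNA per cell cannot be told apart.

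No Gimap gene passed the test. Between Naringin and Control libraries, 5 of the 8 had a log2 fold below 0 and 3 above 0, with a median of -0.012, against a median of 0.025 over all 14873 tested genes, of which 43.3% had a fold below 0. The groups overlapped for all 8, so 0 of 8 were apart, where 5.65% of tested genes were, 2.29% lower and 3.36% higher with naringin. In limma, with Benjamini-Hochberg adjustment over all tested genes, 0 of 8 passed an adjusted p of 0.05, where 0% of all tested genes passed. At an unadjusted p under 0.05 there were 0 of 8 in limma, edgeR and DESeq2 alike, against 1.43% of all genes in limma. Unadjusted limma p-values of the 8 ran from 0.394 to 0.944, and the limma adjusted p was 0.9996 for each. Over the whole table limma passed 0 genes and had 213 below an unadjusted p of 0.05. On recovered reads edgeR passed 0 and had 233 below that p. DESeq2 passed 3 genes, 0.0202% of those tested, and had 227 below that p; 0 of the 3 was a Gimap gene.

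The family took a similar share of each library. Summed over the 8 genes, the level was 2122, 2309 and 2616 CPM in Naringin 1, 2 and 3, and 2500, 2528 and 2217 CPM in Control 1, 2 and 3. The lowest and the highest sums were both Naringin libraries. The means were 2349 ± 249 CPM in Naringin and 2415 ± 172 CPM in Control (SD, n = 3 each).

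The genes lie side by side on mouse chromosome 6 in the RefSeq order Gimap8, Gimap9, Gimap4, Gimap6, Gimap7, Gimap1, Gimap5, Gimap3. Stretches upstream of 4 of their transcription starts are shown because these genes mark the extremes of the data: Gimap4 and Gimap5 moved most alike across libraries, Gimap3 is the close paralog of Gimap5 with far more reads, and Gimap8 moved least like the others. Each is the 250 bases before a start, 5′ to 3′ on the gene's strand, from RefSeq on build GRCm38.p6, which is older than the mm39 build of the reads. Capitals mark matches on either strand to GGAAGT (a core bound by ETS factors), TGTGGT (RUNX), CTTTGA (TCF and LEF) or TGTTTAC (FOXO).
Gimap4, chr6:48684328-48684577, plus strand: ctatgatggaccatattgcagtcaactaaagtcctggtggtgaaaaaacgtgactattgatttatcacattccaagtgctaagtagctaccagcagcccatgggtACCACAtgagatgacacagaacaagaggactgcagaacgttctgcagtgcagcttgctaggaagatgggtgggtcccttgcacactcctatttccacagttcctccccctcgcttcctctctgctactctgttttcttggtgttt
Gimap5, chr6:48745947-48746196, plus strand: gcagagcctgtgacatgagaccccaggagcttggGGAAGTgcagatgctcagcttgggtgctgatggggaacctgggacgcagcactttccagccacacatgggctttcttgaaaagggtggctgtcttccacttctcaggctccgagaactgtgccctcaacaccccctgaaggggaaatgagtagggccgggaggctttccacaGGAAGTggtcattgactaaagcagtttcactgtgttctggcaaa
Gimap3, chr6:48770852-48771101, minus strand: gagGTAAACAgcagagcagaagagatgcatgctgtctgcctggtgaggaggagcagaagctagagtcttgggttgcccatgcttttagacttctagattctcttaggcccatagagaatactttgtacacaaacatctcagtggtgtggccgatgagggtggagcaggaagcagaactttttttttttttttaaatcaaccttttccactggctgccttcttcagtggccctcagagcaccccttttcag
Gimap8, chr6:48646984-48647233, plus strand: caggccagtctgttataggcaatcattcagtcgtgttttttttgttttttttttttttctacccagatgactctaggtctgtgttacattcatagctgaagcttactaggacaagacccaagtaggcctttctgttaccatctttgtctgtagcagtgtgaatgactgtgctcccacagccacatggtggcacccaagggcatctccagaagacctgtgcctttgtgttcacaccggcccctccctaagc

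All 8 genes matched the promoter table, with 9 starts among them because Gimap8 has 2. GGAAGT was found at 2 of the 8 genes, Gimap5 and Gimap6, and in 19.7% of the 32851 upstream stretches of all genes. TGTGGT was found at 3, Gimap1, Gimap4 and Gimap7, and in 14% of all stretches. TGTTTAC was found at Gimap3 alone of the 8, and in 3.17% of all stretches, while CTTTGA was found at 0 of the 8 and in 13.8% of all. The Gimap8 stretches held none of these letters. A match describes the letters in this window and is not a binding site.

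**Figure D1:**
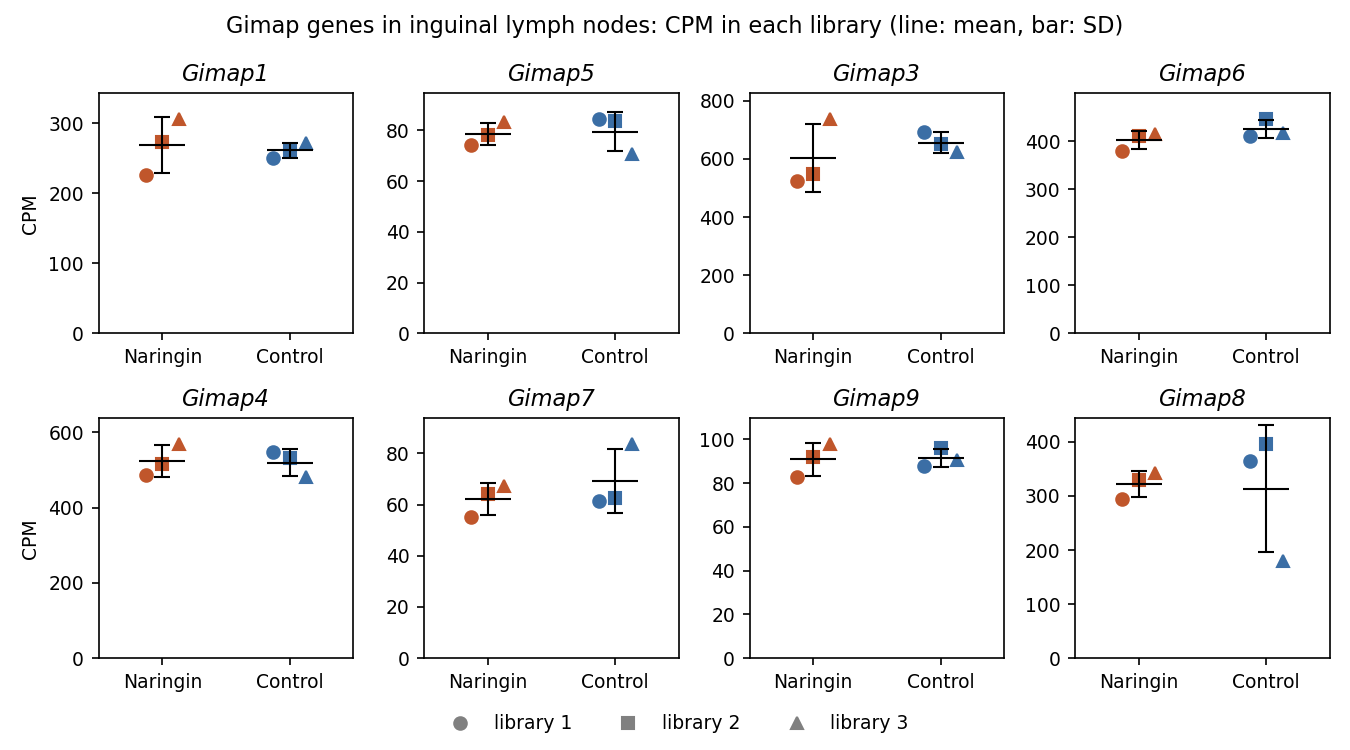
CPM of each Gimap gene (vertical axes, from 0) in the 3 Naringin and 3 Control libraries; points are libraries, the horizontal line is the group mean and the bar its SD. Groups overlap in all 8 panels, and the Gimap8 value of Control 3, 180 CPM, lies below every other library.

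Gimap1, Gimap5 and Gimap3 are the members most closely tied to lymphocyte survival. Gimap1 had 226, 273 and 306 CPM in Naringin 1, 2 and 3, against 251, 261 and 271 CPM in Control 1, 2 and 3. The Control values fell inside the Naringin range. The log2 fold was 0.030 ± 0.14 (SE), with a 95% interval of -0.30 to 0.36. On the linear scale that interval runs from 0.814 to 1.28 times the Control level.

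Gimap5, a lysosomal protein needed for T cell survival, had 74.4, 78.1 and 83.2 CPM in the Naringin libraries and 84.4, 83.6 and 70.5 CPM in the Control libraries. Both its lowest and its highest values were Control libraries. Its log2 fold was -0.014 ± 0.13 (SE), with a 95% interval of -0.30 to 0.28.

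Gimap3, the paralog next to Gimap5 in the mouse, had 523, 548 and 737 CPM with naringin and 693, 652 and 624 CPM in Control. Naringin 1 and 2 lay below all Control libraries and Naringin 3 above them. The log2 fold was -0.14 ± 0.16 (SE), with a 95% interval of -0.51 to 0.23, and it was -0.29 without Naringin 3 and -0.046 without Naringin 1.

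The labels do not say how reads matching both Gimap3 and Gimap5 were counted, and the split between these paralogs is uncertain. Gimap3 had 7.03, 7.01 and 8.85 times the CPM of Gimap5 in Naringin 1, 2 and 3, and 8.21, 7.80 and 8.85 times in Control 1, 2 and 3. The ranges overlapped. The ratio differed by -0.13 on the log2 scale between Naringin and Control (exact permutation test, 2-sided, p = 0.4, n = 3 each), where 0.1 is the smallest p that 3 against 3 allows. Single libraries moved this difference: it was -0.24 without Naringin 3, -0.071 without Naringin 1, -0.069 without Naringin 2 and -0.079 without Control 3.

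Gimap6, whose protein binds the autophagy factor GABARAPL2, was the steadiest member. It had 380, 410 and 414 CPM in the Naringin libraries and 410, 446 and 417 CPM in the Control libraries, with an SD of 0.073 on the log2 scale over all 6. The log2 fold was -0.079 ± 0.12 (SE), with a 95% interval of -0.35 to 0.19.

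Gimap4, which has been linked to the death of T cells rather than their survival, had 487, 515 and 569 CPM with naringin and 548, 531 and 480 CPM in Control. The groups covered almost the same range. Its log2 fold was 0.0094 ± 0.13 (SE), with a 95% interval of -0.29 to 0.31.

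Gimap7, whose human counterpart is an active GTPase, had 55.1, 64.0 and 67.2 CPM in Naringin libraries and 61.3, 62.5 and 83.7 CPM in Control libraries. Control 3 was the highest of the 6. The log2 fold was -0.14 ± 0.16 (SE), with a 95% interval of -0.50 to 0.22, and it was 0.0011 without Control 3.

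Gimap9, one of the less studied members, had 82.7, 91.9 and 97.9 CPM with naringin, against 87.7, 95.8 and 90.4 CPM in Control. The groups overlapped throughout, and the log2 fold was -0.010 ± 0.12 (SE), with a 95% interval of -0.29 to 0.27. A long non-coding gene, Gm46958, lies within the Gimap cluster in RefSeq, and it had at most 1.07 CPM in any library.

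Gimap8, a member with several GTP-binding domains, was the least even of the 8. It had 295, 329 and 342 CPM in Naringin 1, 2 and 3, and 365, 396 and 180 CPM in Control 1, 2 and 3. Control 3 stood apart, below all other libraries, while Control 1 and 2 lay above all Naringin libraries. The log2 fold over all 6 libraries was 0.12 ± 0.28 (SE), with a 95% interval of -0.52 to 0.76. Without Control 3 the direction turned, to -0.24, with an unadjusted p of 0.0307 and an adjusted p of 0.495 by limma. That was the lowest adjusted p of Gimap8 under any alternative. In the same fit 1391 of the 14873 tested genes, and 1 of the 8 Gimap genes, had an unadjusted p under 0.05. Control 3 was also the library lowest in Gimap8, so this p is no separate evidence of a difference.

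**Figure D2:**
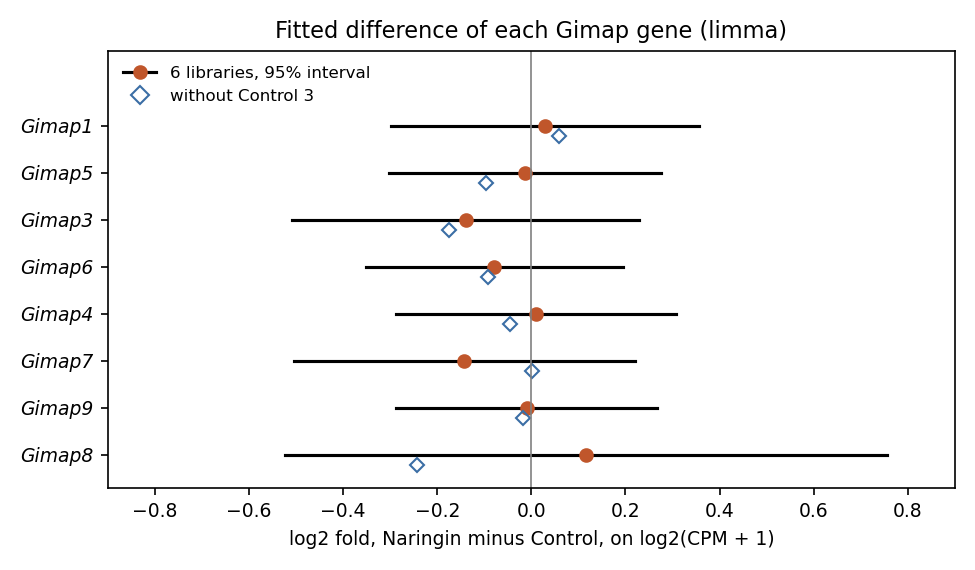
Log2 fold on log2(CPM + 1), Naringin minus Control (horizontal axis), for each Gimap gene; filled points are limma estimates over 6 libraries, lines their 95% intervals, and open diamonds the estimates without Control 3. All intervals span 0, and Gimap8 moves to -0.24 when Control 3 is left out.

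Per kilobase of exon, using GENCODE M21 exon lengths, Gimap4 had the highest level at 284 CPM per kb over the 6 libraries, with Gimap3 at 244. These neighbours in the order overlapped between libraries. Gimap6 followed at 118 CPM per kb and overlapped with neither neighbour. Gimap1 at 86.2, Gimap8 at 85.9 and Gimap9 at 55.5 CPM per kb came next; Gimap1 overlapped with Gimap8, and Gimap8 with Gimap9. Gimap7 at 28.2 and Gimap5 at 19.0 CPM per kb were the lowest and overlapped with no neighbour. The places of Gimap3 and Gimap5 in this order rest on the uncertain split of reads between them. The annotation used to count the reads is not given, so the exon lengths may differ from it. Group means kept close: Gimap4 averaged 285 ± 22.9 CPM per kb in Naringin and 283 ± 19.1 in Control, and Gimap5 averaged 18.9 ± 1.07 in Naringin and 19.2 ± 1.88 in Control (SD, n = 3 each).

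The members ranked the Naringin libraries alike. Of the 3 Naringin libraries, Naringin 1 was the lowest and Naringin 3 the highest for all 8 genes. The share of all tested genes with this order was not counted. Within Control the members did not agree: 4 were lowest in Control 1 and 4 in Control 3. The median deviation of the 8 from each gene's own mean over the 6 libraries was -0.13, -0.010 and 0.12 on the log2 scale in Naringin 1, 2 and 3, and 0.033, 0.069 and -0.0046 in Control 1, 2 and 3. Macrophage and neutrophil markers had the opposite order in the Naringin libraries. The 9 macrophage markers summed to 3128, 2089 and 1107 CPM in Naringin 1, 2 and 3, and 1452, 1638 and 2984 CPM in Control 1, 2 and 3. The 6 neutrophil markers summed to 275, 136 and 51.8 CPM in Naringin 1, 2 and 3, and 57.4, 59.6 and 234 CPM in Control 1, 2 and 3. The sums of plasma cell, blood endothelial, platelet, adipocyte and reticular stroma markers also fell stepwise over Naringin 1, 2 and 3. Those of T cell, B cell, natural killer cell, dendritic cell and erythroid markers did not. None of the macrophage or neutrophil markers was at 0 in all libraries. The part of these cell types in the Gimap differences was not tested.

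Across the 6 libraries, Gimap4 and Gimap5 moved most alike, with a root mean square difference of 0.037 between their log2 deviations. Gimap6 and Gimap9 came next at 0.049. Gimap7 and Gimap8 were the least alike of all pairs, at 0.52. They parted in Control 3, where Gimap7 was 0.36 above its mean and Gimap8 0.78 below it on the log2 scale. In that library Gimap8 made up 8.10% of the family's CPM, against 13.1% to 14.2% in the Naringin libraries and 14.6% to 15.7% in Control 1 and 2.

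Control 3 also stood apart from the other libraries in long and short genes. With tested genes put in 5 bins by exon length, the longest bin had a median deviation of -0.32 there and the shortest 0.19. Gimap8, with 3700 bases of exon, falls in the middle bin, which had a median of -0.021. Only 3.77% of tested genes lay lower than Gimap8 in Control 3 relative to the other 5 libraries. Correcting each library for gene length, a step chosen after seeing the data, left the Gimap8 log2 fold at 0.12. Because the middle bin lay near its mean in Control 3, this step could change Gimap8 little in any case. The cause of the low Gimap8 value in Control 3 was not tested.

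**Figure D3:**
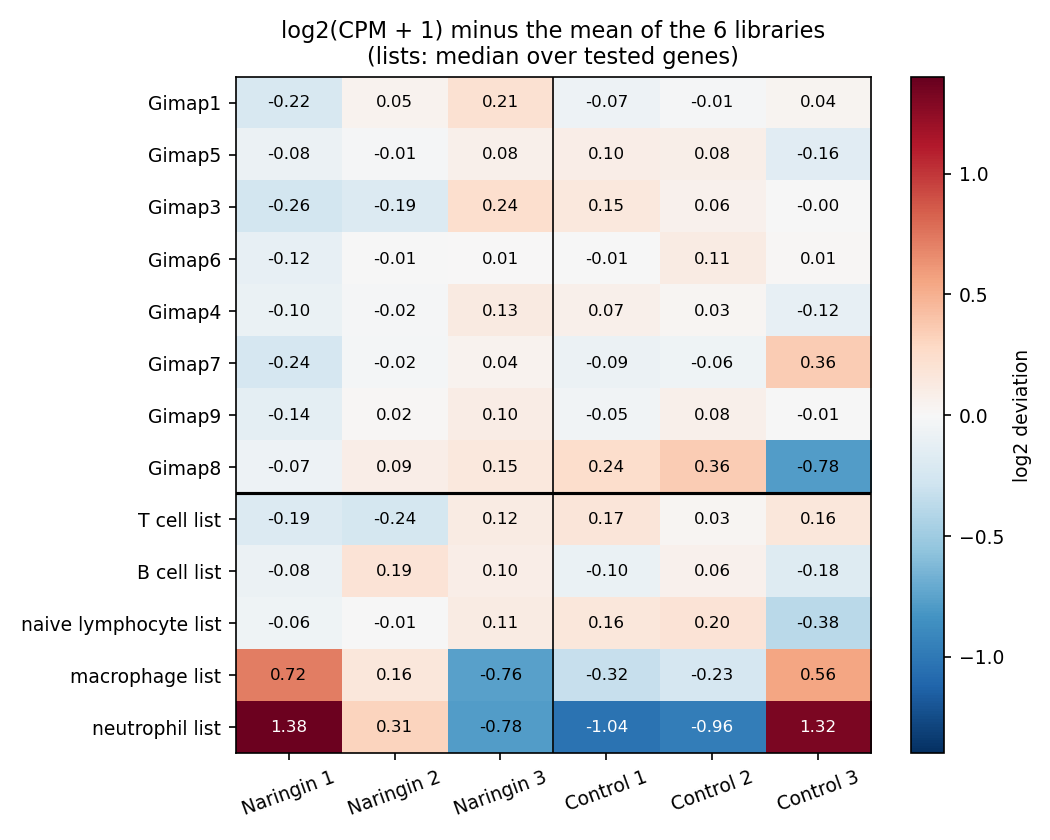
Heat map of log2(CPM + 1) minus each gene's mean over the 6 libraries (columns), for the 8 Gimap genes and, below the line, the median deviation of 5 marker lists; red is above and blue below the mean. Gimap8 in Control 3, at -0.78, is the largest departure among the Gimap genes.

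Since T lymphocytes are a main source of Gimap RNA, the family was set against T cell markers. Of the 19 tested T cell markers, 18 had a log2 fold below 0, with a median of -0.23. None passed in limma, edgeR or DESeq2, and 1 had an unadjusted p under 0.05 in each of these tools. The Gimap sum was 0.554, 0.637 and 0.557 of the T cell marker sum in Naringin 1, 2 and 3, and 0.503, 0.548 and 0.480 in Control 1, 2 and 3. No Control library reached the lowest Naringin library, with means of 0.583 ± 0.0470 in Naringin and 0.510 ± 0.0349 in Control (SD, n = 3 each). Per T cell marker sum, Gimap1, Gimap4 and Gimap9 were higher with no overlap, and the other 5 had overlapping groups. The T cell marker sum, averaging 4051 ± 568 CPM in Naringin and 4733 ± 202 CPM in Control (SD, n = 3 each), raises the ratio of every gene divided by it. Of all tested genes divided by it, 11.9% were higher with no overlap and 0.296% lower. The count of 3 of 8 was not tested against these shares. Against Cd3e, Cd3d and Cd3g alone the groups overlapped, with 4.13, 4.89 and 3.93 in Naringin 1, 2 and 3, and 4.06, 4.39 and 3.23 in Control 1, 2 and 3. These ratios were not tested.

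B cell markers moved the other way, with 12 of 13 tested members above 0 and a median log2 fold of 0.17. None passed in limma, edgeR or DESeq2, and 0 had an unadjusted p under 0.05. The ratio of T to B cell marker sums was 0.868, 0.670 and 0.884 in Naringin 1, 2 and 3, and 1.13, 0.937 and 1.06 in Control 1, 2 and 3, so that the groups did not overlap. The T cell sum and the B cell sum each overlapped between groups. The T to B ratio was not tested, and how often such ratios part was not counted. Set against T and B cell markers together, the Gimap sum was 0.257, 0.255 and 0.261 in Naringin 1, 2 and 3, and 0.267, 0.265 and 0.247 in Control 1, 2 and 3. That ratio kept a narrow range and its groups overlapped. Blood endothelial markers, 11 in number, summed to 910, 723 and 665 CPM in Naringin 1, 2 and 3, and 620, 855 and 759 CPM in Control 1, 2 and 3.

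**Figure D4:**
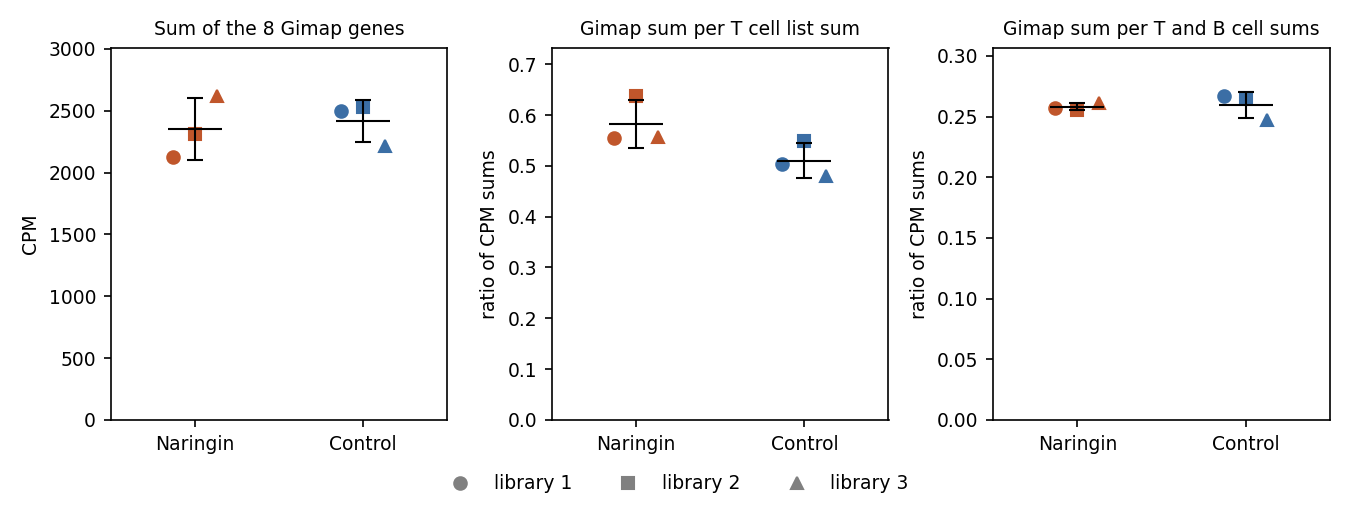
Left, the summed CPM of the 8 Gimap genes; middle, that sum divided by the sum of 20 T cell markers; right, divided by the sums of T and B cell markers together. Points are libraries, lines group means and bars SD; the groups part only in the middle panel, where Naringin runs from 0.554 to 0.637 and Control from 0.480 to 0.548.

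Genes that act with the Gimap proteins were examined as fixed lists. Of 16 tested genes of the Bcl2 family, which decide between survival and death at the mitochondrion, 11 had a log2 fold above 0 and 5 below, with a median of 0.072. None passed, and 0 had an unadjusted p under 0.05 in limma, edgeR or DESeq2. The 3 with the smallest p were the death-promoting Bbc3 (PUMA) at 0.25 and Bik at 0.27, and the survival gene Bcl2a1d at -0.23, one of several near-identical copies. Bbc3 had 26.8, 29.8 and 34.1 CPM in Naringin 1, 2 and 3, against 24.7, 23.4 and 27.7 CPM in Control 1, 2 and 3. Its groups overlapped.

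Of 15 genes of the autophagy conjugation machinery, to which the partner of GIMAP6 belongs, 8 had a log2 fold above 0 and 7 below, with a median of 0.015. Here too 0 passed and 0 had an unadjusted p under 0.05 in limma, edgeR or DESeq2. The ubiquitin-like Map1lc3a was at -0.27, the conjugating enzyme Atg3 at 0.14 and its relative Atg10 at 0.23. The groups were apart for 2 of the 15 genes, 1 higher and 1 lower with naringin, against 5.65% of all tested genes. Atg3 was the higher 1, while Map1lc3a and Atg10 had overlapping groups.

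Gimap5 has been tied to the kinase GSK3β and to lysosomes. Among 9 genes of that list, 5 were above 0 and 4 below, with a median log2 fold of 0.056, and 0 passed or had an unadjusted p under 0.05 in limma, edgeR or DESeq2. The GSK3 substrate Ctnnb1 (beta-catenin) was at 0.17, the lysosomal membrane protein Lamp2 at 0.25 and the scaffold Axin1 at -0.080. These 3 had overlapping groups. Of the 9 genes, 1 had groups apart, lower with naringin, against 5.65% of all tested genes in either direction.

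The list for naive lymphocyte survival and quiescence, which holds the IL-7 receptor and the factors that keep resting cells in circulation, split evenly. Of its 16 genes, 8 were above 0 and 8 below, with a median log2 fold of -0.0012, and 0 passed or had an unadjusted p under 0.05 in limma, edgeR or DESeq2. The cytokine signal carrier Stat5a was at -0.094 and the growth inhibitor Tsc1 at 0.16. The sum over the list was 4780, 4840 and 5190 CPM in Naringin 1, 2 and 3, and 5267, 5354 and 4024 CPM in Control 1, 2 and 3. As with Gimap8, Control 3 was the lowest library for this sum, and Control 1 and 2 lay above all Naringin libraries. Of the 16 genes, 11 were lowest in Control 3, and 0 had groups apart, against 5.65% of all tested genes. How the list splits without Control 3 was not counted. Long genes in general also ran low there, with a median deviation of -0.32 in the longest bin. Whether the list and Gimap8 share a reason for their low values in Control 3 was not tested.

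Genes outside the family were compared with its mean pattern by the root mean square difference of their log2 deviations over the 6 libraries. Over 10976 genes averaging 5 CPM or more, the median difference was 0.20. Among the 10 most alike were Kat7 (a histone acetyltransferase) at 0.018, Traf3ip3 and Dhx30 at 0.028, Foxred1 at 0.028, Smap2, Pias4 and Rae1 at 0.032, 0.032 and 0.033, and Smim8 and Ogfod2 at 0.034. Kat7 had 90.1, 101 and 107 CPM in Naringin 1, 2 and 3, and 105, 104 and 94.0 CPM in Control 1, 2 and 3. The family's own mean pattern spanned -0.15 in Naringin 1 to 0.12 in Naringin 3. In Control 3 it was -0.081 with Gimap8 and 0.018 for the other 7 members. With Gimap8 left out of the pattern, a choice made after seeing the data, 0 of these 10 genes were among the 10 most alike, and Kat7 was at 0.052.

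Of the 3 nearest genes beyond Gimap3, Gm30714, Gm30781 and Gm17834, all are listed at 0 in every library. Beyond Gimap8 lie AI854703, Gm38804, which was under the filter, and Zfp775. The nearest tested genes were AI854703, Zfp775 and Repin1 beyond Gimap8, and Tmem176b, Tmem176a and Gm44764 beyond Gimap3. Their log2 folds ran from -0.25 for Zfp775 to 0.057 for Repin1, and all 6 had overlapping groups and a limma adjusted p of 0.9996. Tmem176b, a membrane protein of myeloid cells, had 320, 270 and 225 CPM in Naringin 1, 2 and 3, and 243, 279 and 395 CPM in Control 1, 2 and 3. In the Naringin libraries it ran opposite to the Gimap genes.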

How the data were processed

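The authors' deposited table gives CPM for each gene; each column sums to 1000000, with no further scaling. Per the submitters' processing notes, build mm39 was used with STAR 2.7.9a, Trimmomatic 0.39, edgeR 3.40.0 and featureCounts of Subread 1.6.0. No source used here gives the annotation or strandedness. Every value above 0 was a whole number of reads within 0.01 (100%). Columns were matched to samples by the number opening each title.

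Values were tested as log2(CPM + 1), which understates changes of low genes, with limma 3.58.1 in R 4.3.3 (trend, robust moderation, 2-sided, Benjamini-Hochberg over all tested genes, threshold 0.05). Recovered reads were tested with edgeR 4.0.16 and DESeq2 1.42.0. The steps were tested on simulated data. Members, lists and tests were chosen with earlier results of these data known. The naming rule was all members, the 3 genes with the smallest p of each pathway list, the 10 genes most like the family (Gm and Rik names, pseudogenes and receptor segments left out) and the 3 nearest genes a side. The nearest tested neighbours were added, and cell marker genes, which the rule also named, are given as sums and counts. Some genes the rule names are not reported here. The gene-length correction was chosen after seeing the data.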

Additional observations from a re-analysis of the deposited data

How the results depend on the processing

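No Gimap gene passed under any of the 20 alternatives. Of 160 member values, 141 kept the direction of the values in the text and 19 turned. Besides DESeq2, which called 3 genes, the count over all genes stayed at 0 under the alternatives with all 6 libraries; leaving out 1 library gave 0 to 1, the 1 without Control 3, where 1391 genes had an unadjusted p under 0.05, against 213 with all 6 libraries. Upper-quartile scaling turned Gimap1 to -0.013 and Gimap4 to -0.034, median-of-ratios scaling Gimap4 to -0.011, quantile normalization Gimap4 to -0.0073 and DESeq2 Gimap4 to -0.0086. With the T cell marker covariate Gimap3 stood at 0.14, Gimap5 at 0.088 and Gimap9 at 0.057, and the members' median at 0.11. The gene-length correction turned Gimap9 to 0.037. Leaving out 1 library gave -0.069 to 0.15 for Gimap1, -0.052 to 0.061 for Gimap4, -0.097 to 0.031 for Gimap5, -0.22 to 0.0011 for Gimap7, -0.24 to 0.33 for Gimap8 and -0.065 to 0.055 for Gimap9; the members' median ran from -0.069 to 0.040. The log2 ratio of the Gimap sum per T cell marker sum, 0.19, was -0.0090 against T and B cell markers together. Leaving Gimap8 out of the family's mean pattern kept 0 of the 10 genes named as most like it. The cause of these changes was not tested.

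The labels do not say whether replicate numbers pair the samples. Over genes, same-numbered libraries' deviations from their group means correlated at -0.26, -0.019 and -0.27. Differently numbered libraries ran from -0.13 (Naringin 2 with Control 1) to 0.31 (Naringin 3 with Control 1). Deviations within a group sum to 0, so these values cannot show whether samples were paired. With the replicate number as a block, 0 genes and 0 members passed, with 157 genes at an unadjusted p under 0.05, and the members' median stayed at -0.012. The 95% intervals with 3 libraries a group do not exclude folds of 0.784 to 1.14 for Gimap6, the narrowest, or 0.696 to 1.69 for Gimap8, the widest.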
